A study of Mus musculus with 3 samples.

Results

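The mitosis genes described here are 48 genes that act between the entry into mitosis and the separation of daughter cells, out of 35562 genes in the tables. They were chosen by name, as genes of the mitotic entry switch, the spindle checkpoint, the kinetochore, the spindle, condensin and cytokinesis. All 48 were found, and all 48 reached a mean level of 10 TPM, a unit that corrects for transcript length and sums to 1000000 in each library. They were compared with the 8428 genes of at least that mean level.

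The data are RNA-seq of 3 myoblast lines called 66, 67 and 72, with 1 library each. The lines came from satellite cells of intraspecies mouse chimeras and carry the genotype Dmd-mdx; Pax7-nGFP, with the mdx mutation corrected by CRISPR/Cas9 in the iPSCs from which they descend. Pax7-nGFP is a transgene that marks Pax7-expressing cells with nuclear green fluorescent protein. The labels do not say which host blastocysts the lines came from. All 3 lines share this genotype, the editing and no further treatment in the labels, which give neither age, tamoxifen injection nor the chimera of a line, so the lines form 1 condition with n = 3 and no p-value between lines can be given. The study's other libraries, of Pax7-nGFP myoblasts and MEFs, were not used here.

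Myoblasts are the dividing progeny of satellite cells, which are stem cells resident in muscle, and they leave the cell cycle when they fuse into myotubes. Entry into mitosis is driven by cyclin-dependent kinase 1 bound to cyclin B and released from inhibition by CDC25 phosphatases. The spindle checkpoint then holds back the anaphase-promoting complex until every kinetochore is attached to microtubules, after which securin and cyclin B are degraded, separase cleaves cohesin, and the cell divides. Most of these genes are transcribed late in the cell cycle by FOXM1, MYBL2 and the MuvB complex, which act through a promoter element called the cell cycle genes homology region (CHR) and through neighbouring CCAAT boxes bound by NF-Y. A bulk library cannot tell fewer dividing cells from less RNA of these genes in each cell.

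The libraries held 73274315, 66972426 and 70272367 estimated counts in lines 66, 67 and 72, and single members had between 1093 and 28578 counts in a line, so that counting error was small. The 95% counting interval of the fold lay above 1 for 46 of the 48 genes between lines 67 and 66 (41.9% of all 8428 genes) and for 44 between lines 72 and 66 (50.9%). The myoblast label was matched by its markers, since all 9 myoblast genes had a mean of at least 10 TPM and Pax7, the satellite cell factor, was at 136, 143 and 154 TPM. None of 6 endothelial, 6 immune and 6 pluripotency markers reached 10 TPM. Of 8 fibroblast markers, only Prrx1 and Col1a2 did, while Dpt and Lum were at 0 in every line.

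Promoter sequences of 39 of the 48 genes were present in the RefSeq table used (GRCm38.p6), taking for each gene the listed start site nearest to the start of its main transcript. In the 250 bases before the start, CCAAT was found on either strand in 29 of the 39 promoters (74.4%), against 33.8% of all 32851 promoters in the table. The CHR letters, TTTGAA or TTTAAA on either strand, were found in 19 (48.7%), against 25.2% of all promoters. Both motifs were present in 17 (43.6%), against 8.78%. No CHR match overlapped a CCAAT match. Such a match describes the letters of the reference and is not a binding site.

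The following 8 stretches show how the motifs lie in front of genes whose levels are described here. They begin 80 bases before the RefSeq start and run up to it, are written 5′ to 3′ on the strand of the gene, and have every CHR and CCAAT match in capitals. Plk1 is at chr7:122159355-122159434 (plus strand), Cdc20 at chr4:118437353-118437423 (minus), Kif11 at chr19:37376302-37376381 (plus), Top2a at chr11:99024190-99024269 (minus), Hmmr at chr11:40733438-40733517 (minus), Spc25 at chr2:69206214-69206293 (minus), Cdc25b at chr2:131186868-131186947 (plus) and Nusap1 at chr2:119618218-119618297 (plus). The Cdc20 stretch holds 71 bases, because it stops before the exon of its longest transcript. A further CCAAT match of Cdc20, at -8, lies in the part left out.
Plk1: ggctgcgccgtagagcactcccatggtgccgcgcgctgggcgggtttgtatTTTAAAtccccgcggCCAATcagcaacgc
Cdc20: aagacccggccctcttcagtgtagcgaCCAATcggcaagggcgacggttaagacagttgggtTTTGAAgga
Kif11: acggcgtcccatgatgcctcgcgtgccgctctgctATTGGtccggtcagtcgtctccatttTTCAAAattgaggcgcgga
Top2a: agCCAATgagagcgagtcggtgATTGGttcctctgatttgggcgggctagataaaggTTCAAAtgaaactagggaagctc
Hmmr: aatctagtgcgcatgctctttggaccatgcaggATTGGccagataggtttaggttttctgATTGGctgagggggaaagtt
Spc25: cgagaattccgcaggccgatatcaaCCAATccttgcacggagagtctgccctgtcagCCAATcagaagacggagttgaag
Cdc25b: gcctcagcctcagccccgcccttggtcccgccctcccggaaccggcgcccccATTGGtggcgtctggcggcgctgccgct
Nusap1: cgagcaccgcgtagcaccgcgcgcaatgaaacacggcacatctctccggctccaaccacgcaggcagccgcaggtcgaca

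In Kif11, Cdc20 and Top2a a CHR match lay close to the start with a CCAAT match before it. The distance from the first base of that CCAAT match to the first base of the CHR match was 26 bases in Kif11 and 35 bases in both Cdc20 and Top2a. Cdc20 also held a CCAAT match at -8, on the start side of its CHR match at -18. In Plk1 the order was turned, with the CHR match at -29 and the CCAAT match at -14 from the start. Hmmr, Spc25 and Cdc25b held CCAAT but no CHR match in their 250 bases, and Nusap1 held neither.

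Among the 39 promoters, 12 had a CCAAT match in front of the CHR match nearest to the start. The distance had a median of 31.5 bases and ran from 17 to 69 bases. In 10 of these it was between 17 and 35 bases, a range whose lower end is the smallest distance found. These distances were not compared with those of all promoters. The nearest CCAAT match had a median position of -44 and the nearest CHR match one of -42, and 19 promoters held 2 or more CCAAT matches, up to 6 in Ube2c and Top2a. Neither motif was found in 8 promoters, those of Pttg1, Mad2l1, Ndc80, Nuf2, Nusap1, Anln, Ncaph and Mybl2. The RefSeq start lay over 100 bases from that of the main transcript in 6 genes, among them Pttg1 (236 bases), Mad2l1 (247 bases) and Kif2c (3867 bases), so that another stretch was read there. In 15 of the 39 genes, Pttg1 among them, the 250 bases overlapped an exon of another or longer transcript of the same gene. In the other 24, the shares were 62.5% for CCAAT and 41.7% for CHR. The 86 other mitosis genes with a promoter in the table, described further below, held CCAAT in 48.8% and CHR in 34.9%, and 18 replication genes did in 72.2% and 22.2%. The 6728 genes of at least 10 TPM with a promoter held CCAAT in 36.8%, CHR in 16.8% and both in 6.44%.

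The 48 genes were well expressed in all 3 lines. Their mean levels ran from 14.3 TPM for Cdc25c to 178 TPM for Top2a, and even Cdc25c stood above 71.0% of the 25510 detected genes. The median gene was at 47.7 TPM in line 66, 69.1 TPM in line 67 and 64.8 TPM in line 72. Summed over the 48 genes, the level was 2753, 3832 and 3688 TPM in lines 66, 67 and 72.

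**Figure D1:**
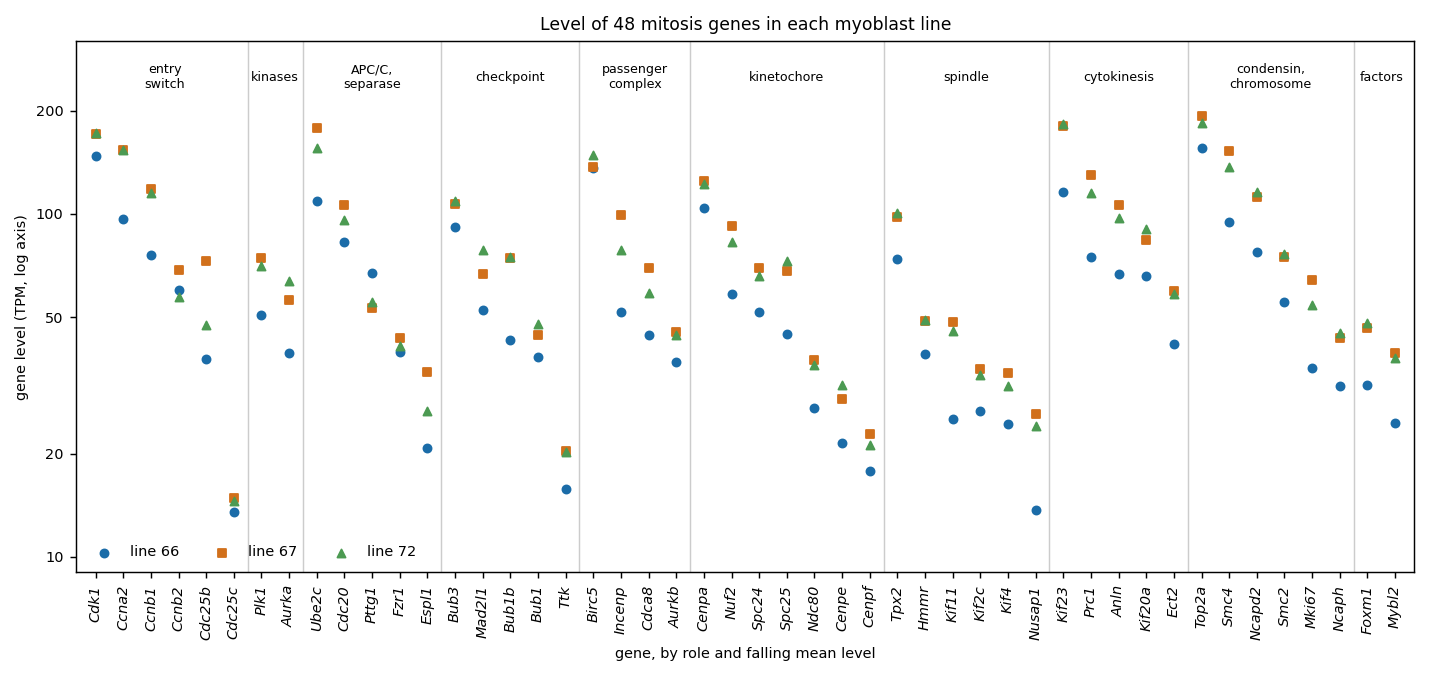
Level of each of the 48 mitosis genes (TPM, log axis) in line 66 (circles), line 67 (squares) and line 72 (triangles), 1 library each, ordered by role and by falling mean. Line 66 is the lowest of the 3 for all but Pttg1 and Ccnb2, and lines 67 and 72 mostly lie close together.

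The lines differed in a single direction for most of these genes. Line 66 was the lowest of the 3 lines for 46 of the 48, compared with 47.7% of all 8428 genes. Besides Pttg1 and Ccnb2, the exceptions by TPM, line 72 was also not above line 66 for Cdc25c and Fzr1 with TMM-scaled counts, and for Cdc25c with DESeq2 size factors or chromosome-centred ratios. On the log2(TPM + 1) scale, the median difference of the 48 genes was 0.47 between lines 67 and 66 and 0.45 between lines 72 and 66, with medians of 0.03 and 0.08 over all genes. Between lines 72 and 67 the median was -0.04, and 0.05 over all genes. Both of the first comparisons share line 66, so they are not independent of each other.

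A difference of more than 1.5-fold, measured on TPM + 1, was used to count genes. Line 67 was higher than line 66 by that much in 18 of the 48 genes, and lower in 0. Over all genes the shares were 2.72% higher and 2.44% lower. Line 72 was higher than line 66 in 12 and lower in 0, with 3.13% and 2.05% over all genes. Between lines 72 and 67, 0 genes were higher and 1 was lower in line 72 (1.73% and 1.59% over all genes), and this was Cdc25b. The 12 genes higher in line 72 became 6 with TMM-scaled counts or DESeq2 size factors (2.06% and 2.14% of all genes), neither of which corrects for transcript length, and 5 of those 6 were among the 12. At a fold of 2, 0 of the 48 genes passed in any of the 3 comparisons, and over all genes at most 0.759% did in either direction.

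**Figure D2:**
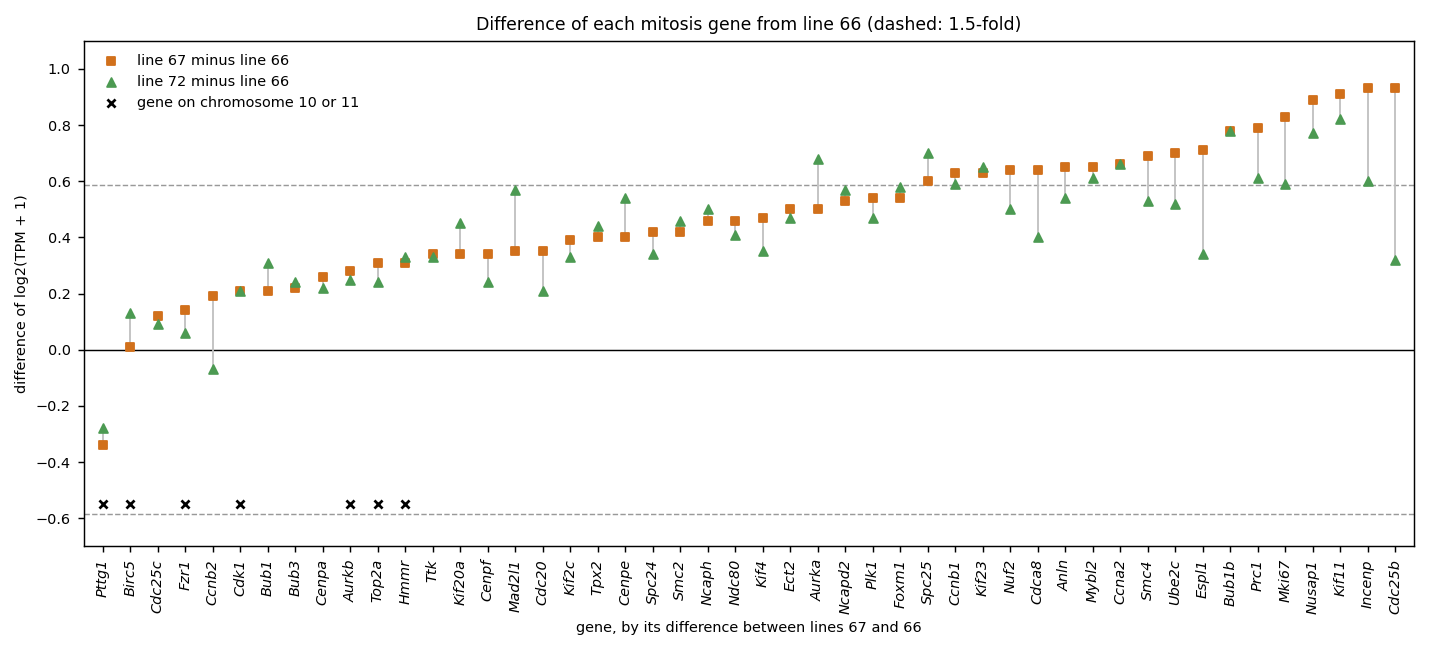
Difference of log2(TPM + 1) of each mitosis gene from line 66, for line 67 (squares) and line 72 (triangles). Dashed lines mark 1.5-fold and crosses mark the 7 genes on chromosomes 10 and 11. Pttg1 lies below 0 in both lines and Ccnb2 in line 72, and 11 genes lie above the upper dashed line in both lines.

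**Figure D3:**
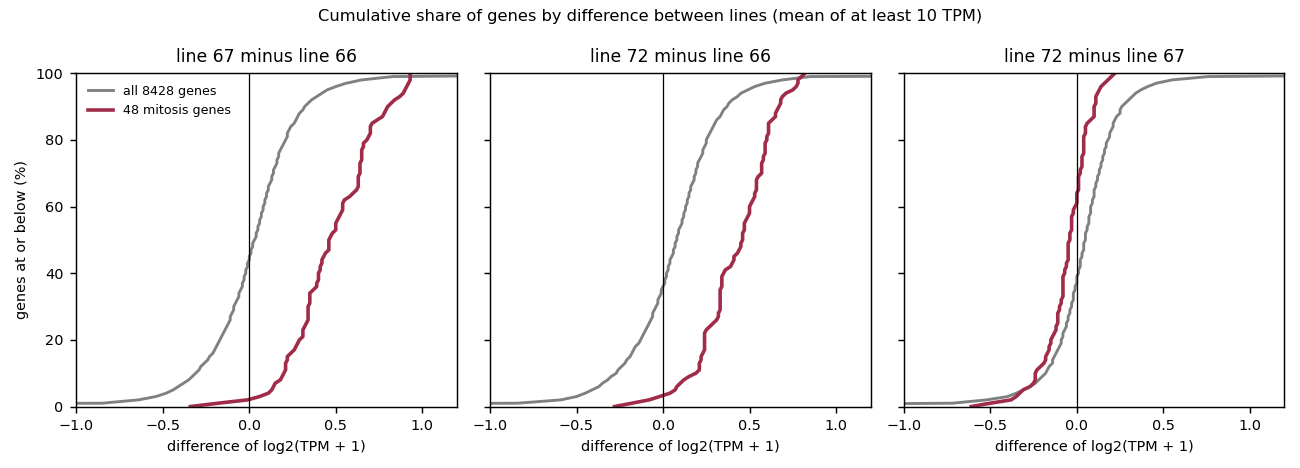
Cumulative share of genes (%) by their difference of log2(TPM + 1) between pairs of lines, for all 8428 genes whose mean reached 10 TPM (grey) and for the 48 mitosis genes (red). The red curve lies to the right of the grey one in both comparisons with line 66 (medians of 0.47 and 0.45) and slightly to its left between lines 72 and 67 (median of -0.04).

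Line 66 was more than 1.5-fold below both other lines for 11 genes, compared with 1.19% of all genes, and more than 1.5-fold above both for 0, compared with 0.997%. The 11 were Ccna2, Ccnb1, Bub1b, Incenp, Spc25, Kif11, Nusap1, Kif23, Prc1, Mki67 and Mybl2. They come from 8 of the 10 roles used to order the genes. With TMM-scaled counts or DESeq2 size factors 4 genes were more than 1.5-fold below both lines in line 66 (0.925% of all genes), namely Ccna2, Kif11 and Nusap1 of these 11 and Cenpf. Line 67 was more than 1.5-fold above both others for Cdc25b alone (0.534% of all genes).

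Genes on chromosomes 10 and 11 had lower ratios to line 66 as a whole. The median difference of the other genes on chromosome 11 was -0.31 between lines 67 and 66 and -0.23 between lines 72 and 66, and that on chromosome 10 was -0.21 and -0.23. Elsewhere, chromosome 6 stood at 0.25 between lines 72 and 66. Foxm1, Mad2l1 and Ncapd2 lie on it, with log2 differences of 0.58, 0.57 and 0.57 between these lines. With the median of chromosome 6 taken off, these were 0.33, 0.32 and 0.32. Of the 48 genes, 7 lie on chromosomes 10 and 11 (Cdk1, Fzr1, Pttg1, Aurkb, Birc5, Hmmr and Top2a), and their median difference was 0.21 in both comparisons, against 0.53 and 0.50 for the other 41. When the median of the other genes of the same chromosome was subtracted, these 7 genes had medians of 0.42 and 0.45 and the other 41 had medians of 0.46 and 0.36. By the same subtraction the count of genes more than 1.5-fold higher was 17 in line 67 (2.29% of all genes) and 3 in line 72 (2.17%), and the 11 genes below both lines in line 66 became 3 (Bub1b, Kif11 and Nusap1, beside 0.902% of all genes).

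The entry switch comprises cyclins, their kinase and its activating phosphatases. Cdk1, the mitotic kinase itself, was at 148, 171 and 172 TPM in lines 66, 67 and 72, the highest of the group. Ccna2, cyclin A2, was at 96.9, 154 and 154 TPM, 1.59-fold higher in line 67 than in line 66 (95% interval 1.54 to 1.64, counting error only). Ccnb1, cyclin B1, was at 75.9, 118 and 115 TPM. The ratio of Ccnb1 to Cdk1 was 0.51, 0.69 and 0.67. Cdk1 lies on chromosome 10, and with chromosome medians taken off, the log2 differences of lines 67 and 72 from line 66 were 0.42 and 0.45 for Cdk1 and 0.53 and 0.42 for Ccnb1. Ccna2 shared 11.8% of its 31-base words with Exosc9, which was at 76.5, 81.7 and 87.1 TPM.

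Ccnb2, cyclin B2, did not share this pattern. It was at 60.0, 68.8 and 57.1 TPM, with line 72 the lowest. The ratio of Ccnb1 to Ccnb2 was accordingly 1.27, 1.72 and 2.01. Cdc25b, a phosphatase that activates the kinase, was at 37.8, 72.9 and 47.4 TPM and had the largest fold between lines of all 48 genes. Line 67 was 1.93-fold of line 66, and line 72 was 0.65-fold of line 67 (95% interval 0.63 to 0.67). Its relative Cdc25c was at 13.5, 14.8 and 14.5 TPM, nearly level across the lines. It lies on chromosome 18 and shared 11.8% of its 31-base words with Gm3550, which was under 0.3 TPM in every line.

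Plk1, the Polo-like kinase that promotes entry and spindle assembly, was at 50.8, 74.5 and 70.5 TPM. Aurka, the Aurora kinase of the spindle poles, was at 39.3, 56.2 and 63.8 TPM, so that line 72 was the highest. It was 1.62-fold higher in line 72 than in line 66 (95% interval 1.55 to 1.70). Tpx2, which activates Aurora A on the spindle, was at 74.0, 97.9 and 100.4 TPM, and the ratio of Aurka to Tpx2 was 0.53, 0.57 and 0.64.

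Genes of anaphase onset differed from each other. Ube2c, the E2 enzyme of the anaphase-promoting complex, was at 109, 178 and 156 TPM. Part of its sequence, 17.7% of its 31-base words, is shared with the troponin gene Tnnc2, which was itself at 54.7, 111 and 126 TPM. The level of Ube2c is therefore uncertain. The share does not measure by how much, because words were pooled over all transcripts of the gene. Espl1, separase, was at 20.8, 34.7 and 26.7 TPM and by TPM was 1.67-fold higher in line 67 than in line 66. One of its retained-intron transcripts, of 296 bases, was at 5.46, 10.2 and 5.47 TPM, and another, of 434 bases, at 2.91, 7.94 and 6.03 TPM. Its main transcript was at 7.81, 11.5 and 7.40 TPM. With TMM-scaled counts line 67 was 1.43-fold of line 66 for Espl1. Cdc20, the activator of the complex in mitosis, was at 82.6, 106 and 96.0 TPM. Fzr1, which activates the complex later and in G1, was at 39.6, 43.6 and 41.2 TPM. Relative to its chromosome, the tenth, its log2 differences from line 66 were 0.35 and 0.29, and those of Cdc20 relative to its own were 0.32 and 0.18.

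Pttg1, securin, which keeps separase inactive, was lower in both other lines than in line 66, alone among the 48 genes. It was at 67.3, 53.0 and 55.3 TPM, highest in line 66, and line 67 was 0.79-fold of line 66 (95% interval 0.73 to 0.84). The ratio of Pttg1 to Espl1 was therefore 3.23 in line 66, 1.53 in line 67 and 2.07 in line 72. It was taken on summed TPM, which for Espl1 includes the short retained-intron transcripts. Pttg1 lies on chromosome 11, and relative to the other genes of that chromosome its log2 difference from line 66 was -0.03 in line 67 and -0.05 in line 72. With that chromosome's median taken off, securin was thus level across the lines, whereas most of the other genes were not.

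In the spindle checkpoint, Bub1b (BubR1, part of the inhibitor of CDC20) had the largest fold by TPM. It was at 43.0, 74.4 and 74.7 TPM, that is 1.73-fold and 1.74-fold of line 66 in lines 67 and 72. Its main transcript alone was at 34.7, 52.8 and 50.4 TPM, and with TMM-scaled counts or DESeq2 size factors line 72 did not pass 1.5-fold. Bub3, its partner, had the highest level of the group at 91.7, 107 and 109 TPM, and the ratio of Bub1b to Bub3 was 0.47, 0.70 and 0.69. Mad2l1, which changes shape at unattached kinetochores, was at 52.3, 67.0 and 78.3 TPM. The kinases Bub1 (38.2, 44.3 and 47.6 TPM) and Ttk (15.8, 20.3 and 20.2 TPM) were lowest in line 66 as well, but by less than 1.5-fold.

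The chromosomal passenger complex corrects faulty attachments and later marks the site of division. Incenp, its scaffold, was at 51.7, 99.4 and 78.7 TPM, 1.92-fold and 1.52-fold higher in lines 67 and 72 than in line 66. Cdca8, borealin, was at 44.3, 69.5 and 58.6 TPM. Birc5, survivin, was at 136, 137 and 149 TPM, and Aurkb, the kinase of the complex, at 37.0, 45.2 and 44.3 TPM. Birc5 and Aurkb lie on chromosome 11, and relative to it their log2 differences from line 66 were 0.32 and 0.36 for Birc5 and 0.59 and 0.49 for Aurkb, beside 0.60 and 0.36 for Cdca8 and 0.88 and 0.54 for Incenp relative to their own chromosomes.

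All 7 genes of the kinetochore and centromere were lowest in line 66. Cenpa, the histone variant that marks centromeres, was the highest of them at 104, 125 and 122 TPM. Spc25 was at 44.6, 68.0 and 73.0 TPM and Nuf2 at 58.5, 92.0 and 83.0 TPM, both subunits of the NDC80 complex that binds microtubules. The other subunits of that complex were Ndc80 at 27.1, 37.6 and 36.3 TPM and Spc24 at 51.7, 69.6 and 65.8 TPM. The ratio of Ndc80 to Nuf2 stayed between 0.41 and 0.46, while that of Spc24 to Spc25 was 1.16, 1.02 and 0.90. The motor Cenpe was at 21.5, 28.9 and 31.8 TPM and Cenpf, a large outer kinetochore protein, at 17.8, 22.8 and 21.2 TPM. The differences of Cenpf depended on a transcript of 358 bases, at 4.56, 0.204 and 0 TPM. Its main transcript was at 11.9 TPM in line 66 and was 1.67-fold and 1.68-fold of that in lines 67 and 72, and with TMM-scaled counts the gene was 1.62-fold and 1.54-fold of line 66.

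Among spindle motors and microtubule proteins, Kif11 and Nusap1 had the largest folds. Kif11, the motor that pushes spindle poles apart, was at 25.3, 48.3 and 45.4 TPM, which is 1.91-fold (95% interval 1.84 to 1.98) and 1.80-fold (1.73 to 1.87) of line 66. Nusap1, a spindle microtubule binding protein, was at 13.7, 26.1 and 24.1 TPM. Tpx2 had the highest level of the group. Kif2c, which takes microtubules apart at their ends, was at 26.6, 35.3 and 33.8 TPM, the chromokinesin Kif4 at 24.4, 34.3 and 31.5 TPM, and the hyaluronan receptor and spindle protein Hmmr at 39.1, 48.6 and 49.2 TPM. These last genes were lower in line 66 by less than 1.5-fold. Kif4 shared 14.6% of its words with Pdzd11.

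The 5 cytokinesis genes had a median difference from line 66 of 0.63 in line 67 and 0.54 in line 72, and of 0.58 and 0.41 with chromosome-centred ratios. Kif23, a motor of the central spindle, was the highest of the group at 116, 181 and 183 TPM when all transcripts were summed. Its 2 leading protein-coding transcripts were at 30.5, 43.3 and 41.1 TPM and at 19.5, 27.7 and 30.5 TPM, so that much of the level came from short noncoding transcripts. Prc1, which bundles the microtubules of the midzone, was at 74.7, 130.2 and 115 TPM, 1.74-fold (95% interval 1.69 to 1.79) and 1.53-fold (1.49 to 1.58) of line 66, and shared 9.68% of its words with Rccd1, which was under 8 TPM in every line. Anln, anillin, the scaffold of the contractile ring, was at 67.0, 106 and 97.6 TPM. The RhoA activator Ect2 was at 41.8, 59.7 and 58.3 TPM, and Kif20a at 65.8, 83.7 and 90.3 TPM. Kif20a, on chromosome 18, shared 26.7% of its words with Cdc23, which was at 68.3, 63.7 and 69.5 TPM.

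Condensin and mitotic chromosome genes held the highest level of all. Top2a, the topoisomerase that untangles sister chromatids, was at 156, 193 and 184 TPM and ranked first of the 48 in every line. Mki67, which coats mitotic chromosomes and is the usual marker of dividing cells, was at 35.6, 64.1 and 54.3 TPM, 1.80-fold (95% interval 1.76 to 1.84) and 1.52-fold (1.49 to 1.56) of line 66. Smc4, a condensin core subunit, was at 94.7, 153 and 137 TPM. The other condensin genes were Smc2 at 55.5, 74.7 and 76.5 TPM, Ncapd2 at 77.5, 112 and 116 TPM and Ncaph at 31.4, 43.6 and 44.9 TPM. All 4 condensin genes were lowest in line 66, and lines 67 and 72 were close to each other.

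Both transcription factors of the list were lowest in line 66 as well. Foxm1 was at 31.7, 46.6 and 48.1 TPM and Mybl2 at 24.6, 39.3 and 38.0 TPM. By summed TPM the ratio of Foxm1 to Mybl2 stayed between 1.19 and 1.29. Part of the Mybl2 level came from a noncoding transcript of 606 bases, at 5.32, 11.2 and 12.7 TPM. The main transcript of Mybl2 was at 13.7, 19.9 and 16.5 TPM. With TMM-scaled counts, line 72 was 1.47-fold of line 66 for Foxm1 but 1.22-fold for Mybl2. Over the 10 roles, the median of the genes' differences from line 66 lay between 0.34 and 0.63 in line 67 and between 0.21 and 0.60 in line 72.

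The spread between the lines was wider for these genes than for genes at large. The median SD of log2(TPM + 1) over the 3 lines was 0.28 for the 48 genes and 0.12 for the 8428 genes. The median coefficient of variation was 19.0%, compared with 8.74%. In single genes it ran from 4.60% for Cdc25c to 34.5% for Cdc25b. Without line 66 the median SD of the 48 genes was 0.06, and that of all genes was 0.08, so the wider spread rested on line 66.

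The share that each transcript held of its gene differed between lines in some cases. The main transcript, the one with the highest mean TPM, was protein coding in 47 of the 48 genes, the exception being Fzr1, whose main transcript is annotated for nonsense-mediated decay. By estimated counts a protein-coding transcript of Fzr1 led in every line, with 50.2%, 51.6% and 54.8% against 34.6%, 37.6% and 30.4%. The median share of the main transcript in its gene's TPM was 72.3%, 76.0% and 73.5% in lines 66, 67 and 72. The leading transcript was not the same in all lines for 5 genes by TPM (Cenpa, Ect2, Fzr1, Incenp and Prc1) and for 2 by estimated counts (Ect2 and Prc1). In Ect2 one protein-coding transcript held 52.8%, 50.2% and 43.4% of the TPM and another 42.8%, 44.4% and 49.6%, so that the second led in line 72. In Aurkb, Bub1b and Cenpf the same transcript led in every line. For Aurkb its share was 61.9%, 51.0% and 41.2%, while another protein-coding transcript held 14.0%, 21.4% and 33.9%. For Bub1b a short retained-intron transcript held 15.6%, 23.1% and 30.4% of the TPM, but at most 2.24% of the estimated counts. For Cenpf the main transcript held 67.1%, 87.4% and 94.7%. Here line 66 had the lowest share, and another transcript of 358 bases held 25.6%, 0.892% and 0% of the TPM. By estimated counts, however, the main transcript of Cenpf held 97.2%, 97.5% and 99.0%, and the short transcript at most 0.864%.

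With only protein-coding transcripts summed, the median difference was 0.43 in both comparisons with line 66, beside 0.02 and 0.07 over all genes. In each, 46 of the 48 genes were higher than in line 66 (54.3% of all genes in line 67 and 63.2% in line 72). More than 1.5-fold higher were 13 genes in line 67 (2.59% of all genes) and 10 in line 72 (3.07%), down from 18 and 12 with all transcripts.

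The other genes of mitosis were mostly lowest in line 66 as well, with smaller differences. Of 101 further genes found, 93 had a mean of at least 10 TPM, and their median difference from line 66 was 0.28 in line 67 and 0.29 in line 72. Line 66 was the lowest for 77 of the 93, line 67 for 11 and line 72 for 5. Over all genes these shares were 47.7%, 32.7% and 19.6%. Line 67 was the highest for 41 and line 72 for 46, while among the 48 genes these were 30 and 17. Of all 8428 genes, 2207 were highest in line 67 and 3852 in line 72. The 46 of 93 thus lay near the share of all genes. Of the 93, more than 1.5-fold higher were 13 in line 67 and 12 in line 72 (2.72% and 3.13% of all genes). None was lower by that much, beside 2.44% and 2.05% of all genes. Among those with the largest folds between lines were Cdca2, Knl1, Sgo2a and Kif18a. Knl1, the kinetochore scaffold of the checkpoint kinases, was at 11.8, 22.3 and 20.5 TPM. The phosphatase subunit Cdca2 was at 12.8, 24.1 and 23.7 TPM, the cohesin protector Sgo2a at 13.1, 21.0 and 22.8 TPM and the motor Kif18a at 7.35, 12.6 and 11.3 TPM.

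Within this wider list, the genes of the anaphase-promoting complex had other values. Its 13 genes are 12 subunits and the E2 enzyme Ube2s (224, 286 and 289 TPM). They had medians of -0.04 and 0.11 from line 66, beside 0.03 and 0.08 over all genes. Of the 13, 0 passed 1.5-fold, which is near the small shares of all genes (2.72% and 3.13% higher, 2.44% and 2.05% lower). The 5 other cytokinesis genes had medians of 0.59 and 0.62. The DREAM and MuvB genes of at least 10 TPM (8 of 10) had medians of 0.07 and 0.22. Genes of DNA replication, which act earlier in the cycle, had medians of 0.36 and 0.31 over 22 genes. Of these, 1 in line 67 (Rrm2) and 2 in line 72 (Rrm2 and Ccne1) were more than 1.5-fold higher. Over all genes the shares were 2.72% and 3.13%. Rrm2, a ribonucleotide reductase subunit, was at 321, 614 and 494 TPM.

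Markers of muscle differentiation moved along with the mitosis genes in these libraries. Of 12 differentiation genes, 11 had a mean of at least 10 TPM and all 11 were lowest in line 66, with medians of 0.54 in line 67 and 0.88 in line 72. Summed over the 12 genes, the level was 1991, 2804 and 3459 TPM, and none was at 0. Myog, the factor that starts differentiation, was at 168, 222 and 310.4 TPM. Unlike the mitosis genes, the differentiation genes were also higher in line 72 than in line 67, by a median of 0.30. The part of these markers in the differences between lines was not tested.

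The 9 myoblast markers differed less, with medians of 0.07 and 0.15 and sums of 2593, 2554 and 2466 TPM. They did not all go the same way, since Myod1 was at 791, 702 and 579 TPM and Fgfr4 at 22.8, 28.5 and 42.6 TPM. Among inhibitors of cyclin-dependent kinases, Cdkn1a was at 364, 452 and 497 TPM and Cdkn1c, at 5.73 TPM in line 66, was 8.37-fold higher in line 72. Cdkn2a went the other way, at 175, 125 and 160.4 TPM, and Cdkn2b was at 27.7, 21.4 and 27.9 TPM. Of the 7 inhibitor and pocket protein genes of at least 10 TPM, 5 were lowest in line 66 and 2 in line 67, and their median differences from line 66 were 0.31 and 0.35. Prrx1 was at 86.9, 77.7 and 133 TPM and Col1a2 at 7.47, 28.3 and 37.0 TPM, and the summed level of the 8 fibroblast markers was 98.7, 112 and 174 TPM. The sums were 1.17 to 2.14 TPM for the endothelial, 3.10 to 4.49 TPM for the immune and 0.329 to 0.505 TPM for the pluripotency markers, with Adgre1 and Dppa4 at 0.

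**Figure D4:**
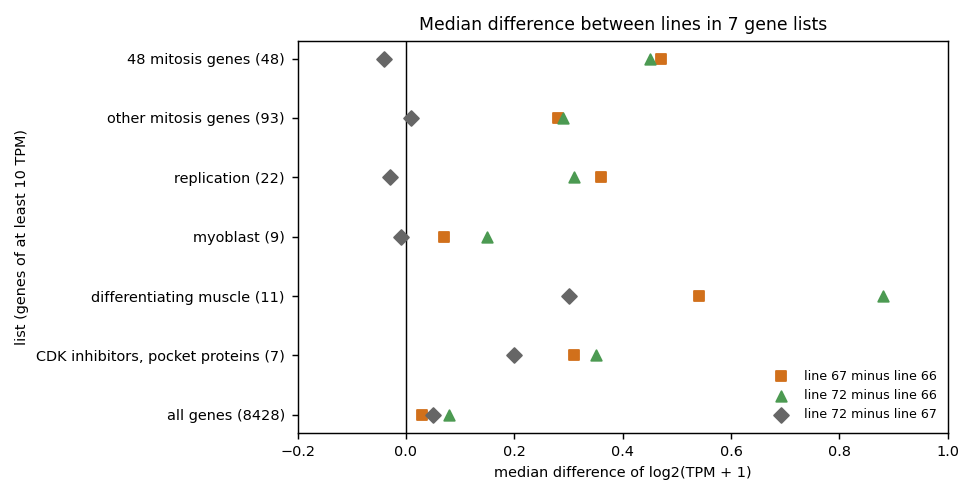
Median difference of log2(TPM + 1) between pairs of lines for 7 gene lists, with the number of genes of at least 10 TPM in brackets. The 48 mitosis genes, the other mitosis genes, the replication genes, the differentiation genes and the CDK inhibitors and pocket proteins lie to the right of 0.2 in both comparisons with line 66, and between lines 72 and 67 the differentiation genes (0.30) and the CDK inhibitors and pocket proteins (0.20) lie farthest to the right. The fibroblast list, with 2 such genes, is not plotted.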

How the data were processed

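Per the labels, libraries were made from poly-A-enriched RNA (stranded kit, RIN above 8), and the submitters' processing notes name bcl2fastq 2.20, fastp 0.20, kallisto 0.46.1 and the build GRCm39. The authors deposited an estimated count and a TPM value per transcript. Transcript identifiers were matched to GENCODE M21 (GRCm38), which held 120686 of 121798, and both values were summed per gene. Gene coordinates are those of GRCm38. Reads that match more than 1 transcript were shared out among these, so genes with common sequence are uncertain.

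Differences were taken on log2(TPM + 1) for genes averaging at least 10 TPM and counted past 1.5-fold, with no test, since each line has 1 library. Intervals of folds (95%) cover counting error only. Scalings came from edgeR 4.0.16 (TMM) and DESeq2 1.42.0 on rounded estimated counts, and the scripts were tested on simulated data. Python 3.11.15 and R 4.3.3 were used. Every member could be named. Values of all lines were required for the highest member and the 2 largest folds of each role, and for the 5 largest folds of the other mitosis genes, of which 1 is not reported here. The members and lists were chosen with earlier results of these data known. Lin54 was not analysed here. The alternatives are described in the closing section.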

Additional observations from a re-analysis of the deposited data

How the results depend on the processing

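Of 223 recomputed values, 202 stayed within the spread between the lines (for counts within 1.5-fold, for promoter shares within their 95% binomial interval). That spread, 0.28 for the 48 genes, rested on line 66 and was wide beside the median differences. A small median could also change sign and stay within it, so the 202 do not show that the medians were unchanged. Medians close to 0 between lines 72 and 67 changed sign with TMM-scaled counts, from 0.05 to -0.03 for the mitotic kinases, from 0.03 to -0.09 for the spindle checkpoint and from 0.01 to -0.04 for the other mitosis genes (-0.02 when chromosome-centred), and no median difference from line 66 did. The median differences of the 48 genes ranged from 0.45 to 0.53 (line 67 minus line 66), from 0.36 to 0.50 (line 72 minus line 66) and from -0.12 to -0.04 (line 72 minus line 67) over all settings, including removal of a length and GC trend, of genes on chromosomes 10 and 11 and of genes that share over 10% of their words, all of which were chosen after seeing the data. At a threshold of 25% above, 36 genes were higher and 1 lower in line 67 than in line 66 (10.1% and 9.44% of all genes), 34 were higher in line 72 than in line 66 (13.2%), 3 were lower in line 72 than in line 67 (4.56%), 33 were below both lines in line 66 (6.17%) and 3 above both in line 67 (1.96%). At 2-fold, 0 passed in each comparison (0.392% to 0.759% of all genes). For line 72 over line 66 the count was 6 with TMM-scaled counts (2.06% of all genes), 6 with DESeq2 size factors (2.14%) and 3 with chromosome-centred ratios (2.17%), and 3 genes were then below both lines in line 66, as were 4 with TMM-scaled counts and 4 with DESeq2 size factors, both chosen for this count after seeing the data. Both scalings of counts set the median of all genes to 0.00 in place of 0.08. The cause of the lower counts was not tested. The median level of the 48 genes, 5.96 on the log2 scale, was 6.41 with CPM and lay between 5.88 and 6.06 when a line was left out, and their median SD of 0.28 became 0.06 to 0.33. In the 100 bases before the start site, 30.8% of the promoters held the CHR letters, against 9.71% of all promoters, and 28.2% held both motifs, against 1.77%. By estimated counts, the median share of the main transcript was 87.4%, 88.1% and 86.7% in lines 66, 67 and 72. No paired analysis was possible because the 3 lines form 1 group with 1 library each, which also leaves no estimate of the error within a line.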
